A study of Bos taurus with 8 samples.

Results

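The collagens were read from fragments of their mRNAs in small RNA libraries of dairy cow liver. The members are the protein-coding genes whose name is COL, digits, A, digits, which gave 40 genes of 19994 protein-coding genes and of 24616 genes in all. COL4A3BP, a ceramide transporter whose name begins in the same way, is not among them. Each library came from the liver of 1 Holstein Friesian cow, slaughtered approximately 14 days postpartum, when all the cows were in negative energy balance (NEB). The 4 cows in severe NEB (SNEB, libraries 7S, 8S, 9S and 10S) were kept on 25 kg silage and 4 kg concentrate per day, with 3 milkings daily. The 4 cows in mild NEB (MNEB, libraries 2M, 3M, 4M and 5M) ate silage ad libitum, were given 8 kg concentrate per day, and had 1 milking daily. The ages of the cows are not given in the sources used here. Library 2M carries a severe NEB label in the repository but is an MNEB library by its title, and was analysed as MNEB. Results are also given with 2M in SNEB or left out. The column headed 6S was taken as 8S, whose label names that column by letter.

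Collagens are proteins of the extracellular matrix in which 3 chains wind into a triple helix. The fibrillar collagens, types I, III and V among them, form the tensile fibres of portal tracts and of scar, and in liver are made mostly by stellate cells and portal fibroblasts. Type IV collagen forms the sheet-like network of basement membranes around vessels and bile ducts. Type VI forms beaded filaments close to cells. Type XVIII, the product of COL18A1, is a basement membrane proteoglycan whose C-terminal fragment is endostatin, and in human and mouse liver hepatocytes are a main source of it.

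Protein-coding genes held a small part of each library, since miRNAs took 98.7% to 99.5% of gene reads. In SNEB the protein-coding reads numbered 116725 to 195589, 0.519% to 0.686% of the gene reads, and in MNEB they numbered 58887 to 280802, 0.191% to 0.928%. Levels below are counts per 1000000 of these protein-coding reads (CPM). With this depth 1 read was worth 5.11 to 8.57 CPM in the SNEB libraries and 3.56 to 17.0 CPM in the MNEB libraries. A count of 0 was taken to allow up to 3 reads, 15.3 to 25.7 CPM in SNEB and 10.7 to 50.9 CPM in MNEB. Intervals given for single libraries are exact 95% binomial intervals and cover counting error only. At a count of 0 these intervals reach further, to 18.9 to 31.6 CPM in SNEB and 13.1 to 62.6 CPM in MNEB. Library 4M stood apart in Kupffer cell genes, whose sum in it was 16119 CPM, against 353 to 899.9 CPM in SNEB and 1035 to 3736 CPM in the other MNEB libraries.

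Of the 40 collagen genes, 29 had at least 1 read in some library and 11 had none. Together they had 4846 reads. COL18A1 alone held 79.1% of these, and COL3A1 followed with 5.55%. Summed over all collagens, the level was 4261 ± 1525 CPM in SNEB and 3348 ± 1596 CPM in MNEB (± SD, 4 libraries per group), a log2 ratio of 0.35, which was 0.37 with 2M in SNEB and 0.40 without 2M. Gene lengths were not used here, so read numbers of different genes are not their relative levels. A mean count of at least 10 was reached by 4 genes, COL18A1, COL3A1, COL4A1 and COL6A3, the last with a mean of 10.4. Just under it lay COL4A2 with a mean of 9.62. A further 8 genes, COL4A2 included, had a mean count of 5 or more, and the remaining 17 with reads lay below that.

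**Figure D1:**
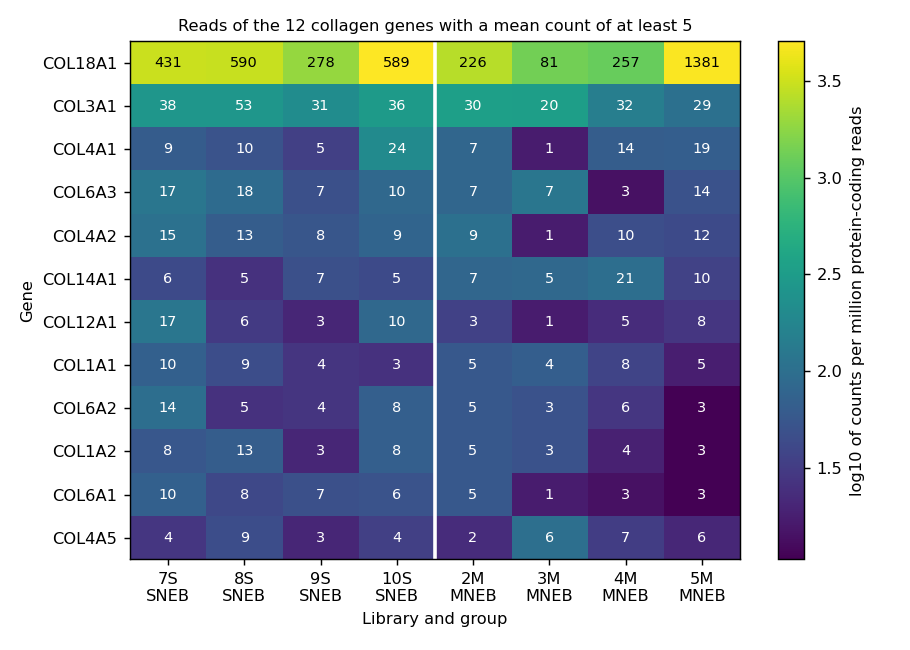
Read counts (numbers in the cells) of the 12 collagen genes with a mean count of at least 5, by library, with colour giving log10 of counts per 1000000 protein-coding reads. COL18A1 had 81 to 1381 reads per library, while COL3A1 had 20 to 53 and the other 10 genes 1 to 24.

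COL18A1 (ENSBTAG00000023907) was the collagen with the most reads in every library. Its level was 3063, 3017, 1909.6 and 5046 CPM in the SNEB libraries 7S, 8S, 9S and 10S, against 2627, 1376, 1201 and 4918 CPM in the MNEB libraries 2M, 3M, 4M and 5M. The highest SNEB library and the highest MNEB library were close to each other, and the groups overlapped over most of their range. The 95% intervals were 4648 to 5469 CPM in 10S and 4663 to 5184 CPM in 5M, both clear of 9S (1692 to 2148 CPM) and 4M (1059 to 1358 CPM), so the spread within each group was larger than the counting error. The means were 3259 ± 1305 CPM in SNEB and 2531 ± 1714 CPM in MNEB (± SD, 4 libraries per group). In edgeR's quasi-likelihood test over 2415 protein-coding genes COL18A1 had a log2 difference of 0.25 (± 0.49 SE, adjusted p = 0.865). Log2 differences and ratios are SNEB over MNEB throughout, and replicate numbers are those of the library names. Without MNEB replicate 5 it became 0.92 (adjusted p = 0.186), and without SNEB replicate 10 or MNEB replicate 4 it lay at -0.013 and -0.0015. Other loci, 3 in number, overlap COL18A1 in the RefSeq annotation of ARS-UCD2.0, and since the use of strand in counting is not given, their reads may be part of its count. The same limit holds for other collagens with overlapping loci, among them COL1A2, COL4A4, COL4A5, COL4A6, COL10A1 and COL14A1. The loci overlapping COL4A5, COL4A6 and COL14A1 are small RNA genes (snRNA, snoRNA or tRNA).

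Within the collagens the share of COL18A1 was 71.2%, 77.2%, 74.1% and 80.6% in the SNEB libraries 7S to 10S and 70.4%, 56.2%, 66.8% and 90.8% in the MNEB libraries 2M to 5M. This share needs no scaling between libraries. It was lowest in 3M, with an interval of 47.7% to 64.5%, and highest in 5M, with an interval of 89.2% to 92.2%. The SNEB values lay inside the range of the MNEB values. Against the total over all genes (reads per 1000000 gene reads, RPM), COL18A1 stood at 19.9, 20.7, 11.3 and 26.2 RPM in SNEB and 9.91, 2.63, 11.1 and 40.7 RPM in MNEB, so the overlap of the groups did not depend on the denominator. The summed level of 10 hepatocyte genes, albumin and the fibrinogens among them, was 112742 to 210181 CPM in SNEB and 98305 to 220910 CPM in MNEB. It was highest in 5M, where COL18A1 was also high, and was 132191 CPM in 10S, the library with the highest COL18A1. In 9S, the SNEB library with the lowest COL18A1, it was 210181 CPM. The 10 genes did not move together, with 5 fitted log2 differences above 0 and 5 below. In 9S the fibrinogen gene FGB was at its highest of all libraries, 86022 CPM, and albumin (ALB) at its lowest, 5537 CPM. The part of hepatocyte RNA content in the COL18A1 level was not tested. In bulk tissue, fewer cells of a type and less RNA per cell cannot be told apart.

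The fibrillar chains had 440 reads over the 8 libraries, 35 to 86 in each. Their summed level was 498, 439.7, 350.3 and 471 CPM in SNEB (7S, 8S, 9S, 10S) and 499.9, 594, 224 and 185 CPM in MNEB (2M, 3M, 4M, 5M). The SNEB libraries lay close together, whereas the MNEB libraries formed 2 pairs on the CPM scale. Libraries 2M and 3M lay above the highest SNEB value, 2M only just, and 4M and 5M lay below the lowest. The protein-coding reads, by which CPM are divided, were 86014 and 58887 in 2M and 3M and 213905 and 280802 in 4M and 5M. The fibrillar reads were 43, 35, 48 and 52 in the same order. The means were 439.7 ± 64.1 CPM in SNEB and 376 ± 202 CPM in MNEB (± SD, 4 libraries per group), a log2 ratio of 0.23. With 2M in SNEB this ratio was 0.43, without 2M it was 0.39, and without MNEB replicate 5 it was 0.00040. As RPM, the sums were 3.24, 3.01, 2.066 and 2.45 RPM in SNEB and 1.89, 1.14, 2.08 and 1.53 RPM in MNEB, a log2 ratio of 0.70. On that scale 9S and 4M were the libraries that kept the groups from separating, and the MNEB libraries did not form the same pairs.

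**Figure D2:**
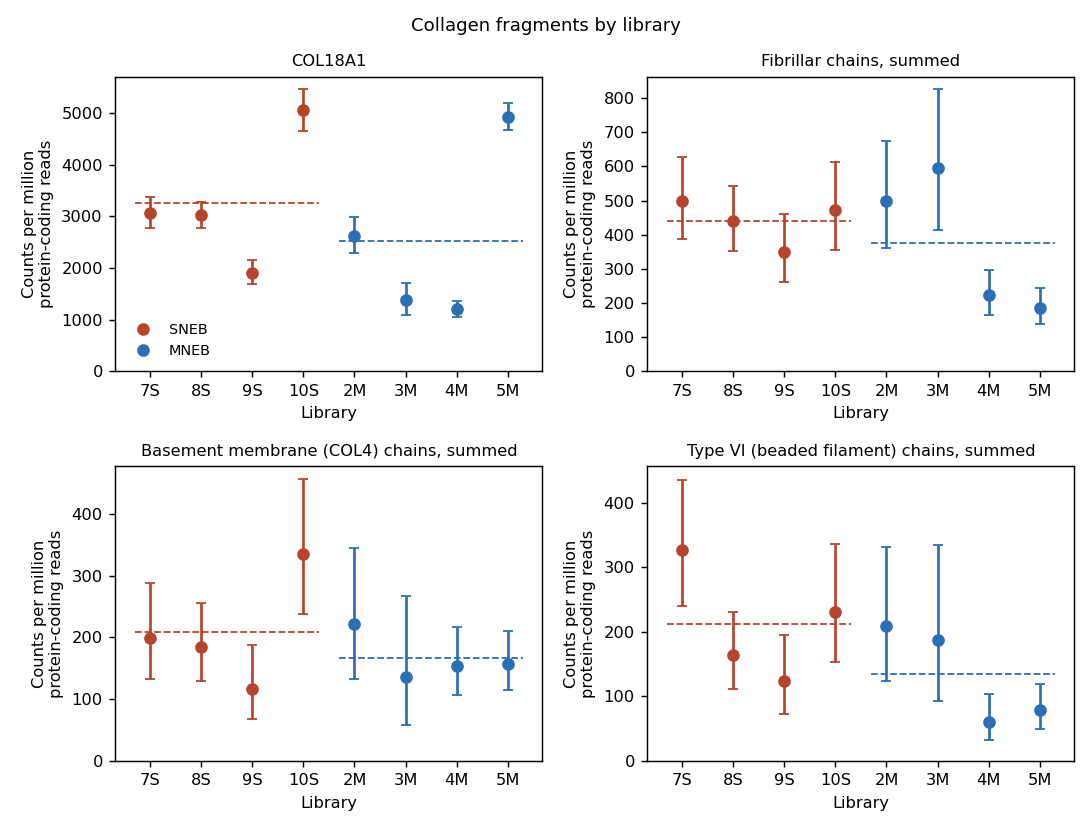
Counts per 1000000 protein-coding reads by library for COL18A1 and for the summed fibrillar, basement membrane (COL4) and type VI chains, with exact 95% binomial intervals as bars and group means as dashed lines. The fibrillar sums of 4M and 5M, 224 and 185 CPM, lay below all SNEB libraries, and those of 2M and 3M did not.

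Type III collagen, encoded by COL3A1 alone, is the main partner of type I in distensible tissue. COL3A1 had 270.1, 271, 213 and 308 CPM in SNEB and 349, 339.6, 149.6 and 103 CPM in MNEB, and like the fibrillar sum, of which it is the largest part, it was highest in 2M and 3M and lowest in 4M and 5M. Its means were 266 ± 39.4 CPM in SNEB and 235 ± 127 CPM in MNEB (± SD, 4 libraries per group), and the fitted log2 difference was 0.23 (± 0.39 SE, adjusted p = 0.840 in edgeR's quasi-likelihood test). Its share of the fibrillar reads was 54.3% to 65.5% in SNEB and 55.8% to 69.8% in MNEB. The other fibrillar chains without COL3A1 summed to 227, 169, 137 and 163 CPM in SNEB and 151, 255, 74.8 and 81.9 CPM in MNEB. They too were lowest in 4M and 5M on the CPM scale.

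Type I collagen, the main collagen of scar, is a trimer of chains from COL1A1 and COL1A2. COL1A1 stood at 71.1, 46.0, 27.5 and 25.7 CPM in SNEB and 58.1, 67.9, 37.4 and 17.8 CPM in MNEB, from 3 to 10 reads a library. COL1A2 stood at 56.9, 66.5, 20.6 and 68.5 CPM in SNEB and 58.1, 50.9, 18.7 and 10.7 CPM in MNEB, from 3 to 13 reads. Neither gene separated the groups. Both had their lowest value in 5M. Their sum was 95.7 ± 34.6 CPM in SNEB and 79.9 ± 44.9 CPM in MNEB (± SD, 4 libraries per group).

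Type V collagen starts the assembly of type I fibrils. COL5A2, its most read chain here, had 2 to 11 reads in SNEB libraries and 1 to 10 reads in MNEB libraries, or 13.7 to 78.2 CPM in SNEB and 9.35 to 35.6 CPM in MNEB. COL5A1 had 0 to 3 reads in SNEB libraries and 0 to 2 in MNEB libraries. COL5A3 had 1 read in 8S and 3 reads in 5M and 0 elsewhere. COL27A1, a fibrillar collagen of cartilage, had 11 reads in 9S and 5 reads in 3M, or 75.6 and 84.9 CPM, and 0 to 2 reads in the other libraries. The miR-455 gene lies within COL27A1 in the RefSeq annotation, and miR-455 was counted apart, at 87.1 RPM in 9S, 51.8 RPM in 3M and 2.91 to 109 RPM over all libraries. COL2A1, COL11A1 and COL11A2, the fibrillar collagens of cartilage, were at 0 in every library.

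The basement membrane chains, all of type IV, had 224 reads over the 8 libraries, 8 to 44 in each. Their sum was 199, 184, 117 and 334 CPM in SNEB (7S, 8S, 9S, 10S) and 221, 136, 154 and 157 CPM in MNEB (2M, 3M, 4M, 5M). Library 10S stood above the others and 9S below them, so SNEB held both the highest and the lowest value. The means were 208 ± 91.1 CPM in SNEB and 167 ± 37.2 CPM in MNEB (± SD, 4 libraries per group), a log2 ratio of 0.32. Without SNEB replicate 10 the log2 ratio was -0.0027. With 2M in SNEB it was 0.50 and without 2M it was 0.49.

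COL4A1 and COL4A2, which lie next to each other in the genome, encode the chains of the type IV trimer found in nearly all basement membranes. COL4A1 stood at 64.0, 51.1, 34.3 and 206 CPM in SNEB and 81.4, 17.0, 65.4 and 67.7 CPM in MNEB. Its value in 10S rested on 24 reads and had an interval of 132 to 306 CPM. For COL4A1 the fitted log2 difference was 0.40 (± 0.56 SE, adjusted p = 0.804 in edgeR's quasi-likelihood test) and turned to -0.34 (adjusted p = 0.876) without SNEB replicate 10. COL4A2 stood at 107, 66.5, 55.0 and 77.1 CPM in SNEB and 105, 17.0, 46.7 and 42.7 CPM in MNEB, and 10S did not stand apart. Both genes had 1 read in 3M, the library with the fewest protein-coding reads.

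The other type IV chains are known from kidney, lung, eye and smooth muscle. COL4A5 had 28.4, 46.0, 20.6 and 34.3 CPM in SNEB and 23.3, 102, 32.7 and 21.4 CPM in MNEB, the highest value resting on 6 reads in 3M. COL4A6, its neighbour on the X chromosome, had 0 to 2 reads in both groups. COL4A4 had 7 reads in 5M, 2 reads in 8S and 1 read in 9S, and COL4A3, its neighbour, had none.

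The ratio of fibrillar to basement membrane reads compares both kinds of collagen within a library, without scaling. It was 2.50, 2.39, 3.00 and 1.41 in SNEB (7S, 8S, 9S, 10S) and 2.26, 4.38, 1.45 and 1.18 in MNEB (2M, 3M, 4M, 5M). Fibrillar reads outnumbered type IV reads in all 8 libraries, and in 5 of them, 7S, 8S, 9S, 2M and 3M, the lower bound of the interval was above 1. The widest interval was that of 3M, 1.99 to 10.9, from 35 and 8 reads. The mean ratio was 2.32 ± 0.665 in SNEB and 2.32 ± 1.45 in MNEB (± SD, 4 libraries per group). On the log2 scale SNEB lay 0.14 above MNEB, a difference smaller than the spread of 0.68 (SD of log2 ratios within groups), and its sign turned without MNEB replicate 4 (-0.018) or MNEB replicate 5 (-0.12). With 2M in SNEB the difference was 0.20, and without 2M it was 0.19. When COL15A1 and COL18A1, which are also basement membrane collagens, were added to the type IV chains it was -0.089.

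**Figure D3:**
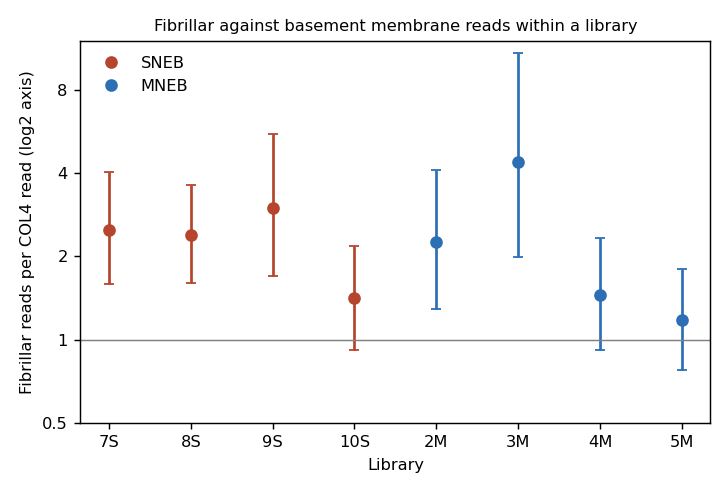
Fibrillar reads per COL4 read by library on a log2 axis, with exact 95% intervals. The values ran from 1.41 to 3.00 in SNEB and from 1.18 to 4.38 in MNEB, so the MNEB libraries enclosed the SNEB libraries.

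Type VI collagen is assembled from 1 chain each of COL6A1, COL6A2 and a longer chain such as COL6A3. The type VI chains summed to 327, 164, 124 and 231 CPM in SNEB and 209, 187, 60.8 and 78.3 CPM in MNEB. Again 4M and 5M, the libraries with the most protein-coding reads, were below all SNEB libraries in CPM while 2M and 3M lay among them. The means were 211 ± 88.9 CPM in SNEB and 134 ± 75.1 CPM in MNEB (± SD, 4 libraries per group). COL6A3 stood at 121, 92.0, 48.1 and 85.7 CPM in SNEB and 81.4, 119, 14.0 and 49.9 CPM in MNEB, and its fitted log2 difference was 0.53 (± 0.54 SE, adjusted p = 0.7105 in edgeR's quasi-likelihood test). COL6A1 stood at 71.1, 40.9, 48.1 and 51.4 CPM in SNEB and 58.1, 17.0, 14.0 and 10.7 CPM in MNEB, so that 2M was the only MNEB library within the SNEB range. COL6A2 stood at 99.5, 25.6, 27.5 and 68.5 CPM in SNEB and 58.1, 50.9, 28.0 and 10.7 CPM in MNEB. COL6A6 had 0 to 5 reads a library in SNEB and 0 to 2 in MNEB.

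The fibril-associated collagens, which sit on the surface of type I fibrils, were represented mainly by COL12A1 and COL14A1. COL12A1 stood at 121, 30.7, 20.6 and 85.7 CPM in SNEB and 34.9, 17.0, 23.4 and 28.5 CPM in MNEB, high in 7S and 10S only. COL14A1 stood at 42.6, 25.6, 48.1 and 42.8 CPM in SNEB and 81.4, 84.9, 98.2 and 35.6 CPM in MNEB. For COL14A1, 2M, 3M and 4M lay above every SNEB library and 5M lay inside the SNEB range. In the fit with a mean count of at least 5, the log2 fold changes were 1.14 for COL12A1 (± 0.60 SE, adjusted p = 0.514) and -0.87 for COL14A1 (± 0.49 SE, adjusted p = 0.553), both from edgeR's quasi-likelihood test. COL16A1 had 0 to 3 reads in each group, COL20A1 had 1 read each in 2M and 5M, and COL22A1 had 1 read in 8S.

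The remaining classes gave few reads. COL15A1, the other multiplexin beside COL18A1, is found in vascular and perineural basement membranes. It had 0 reads in all 4 SNEB libraries and 1, 1, 3 and 0 reads in 2M, 3M, 4M and 5M, which is near the limit that a count of 0 allows. COL8A1, a network collagen of vessel walls, had 0 to 5 reads in SNEB and 0 to 2 in MNEB. COL7A1, of the anchoring fibrils of skin, had 0 to 1 reads in SNEB and 0 to 3 in MNEB. COL10A1, COL13A1 and COL17A1 had 3, 2 and 1 reads in all, every one of them in SNEB, and COL28A1 had 2 reads, both in 3M. The 11 genes at 0 in every library were COL2A1, COL4A3, COL8A2, COL9A1, COL9A2, COL9A3, COL11A1, COL11A2, COL21A1, COL23A1 and COL25A1, among them the type II, IX and XI chains of cartilage.

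Over the 2415 protein-coding genes with a mean count of at least 10, the quasi-likelihood test of edgeR, scaled by TMM, called 0 of the 4 collagens and 3 genes in all, 0.124% of those tested, at an adjusted p under 0.05. At an unadjusted p under 0.05 there were 0 of the 4 collagens, against 14.5% of all genes tested. The CPM of the groups overlapped in all 4, while 7.12% of the 2415 genes did not overlap, 4.72% with SNEB higher and 2.4% with SNEB lower. DESeq2 called 0 of the 4 collagens and 73 of the 2415 genes, edgeR's exact test 0 and 67, and limma voom 0 and 2. At an unadjusted p under 0.05, DESeq2 and the exact test had 0 of the 4 collagens and limma voom had 1, COL6A3. Of all 2415 genes, DESeq2 had 307 under it, the exact test 340 and limma voom 304. In edgeR's quasi-likelihood test without MNEB replicate 5, 1 of the 4 collagens, COL18A1, lay under it, beside 547 of the 2415 genes. With at least 1 read required in every library it was 1 of 13 collagens and 516 of 4887 genes. With 2M in SNEB the fitted log2 differences were 0.16 for COL18A1, 0.54 for COL3A1, 0.46 for COL4A1 and 0.66 for COL6A3, and without 2M they were 0.22, 0.47, 0.49 and 0.67 for the same genes in that order, with 0 called either way. The fitted differences of all 4 lay above 0 (median log2 0.33), beside a median of -0.01 over all genes tested, of which 49.4% lay above 0. The 3 genes called were ANGPTL4 and CREB3L3, which respond to fasting and were higher in SNEB, and FADS2, a fatty acid desaturase, which was lower.

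**Figure D4:**
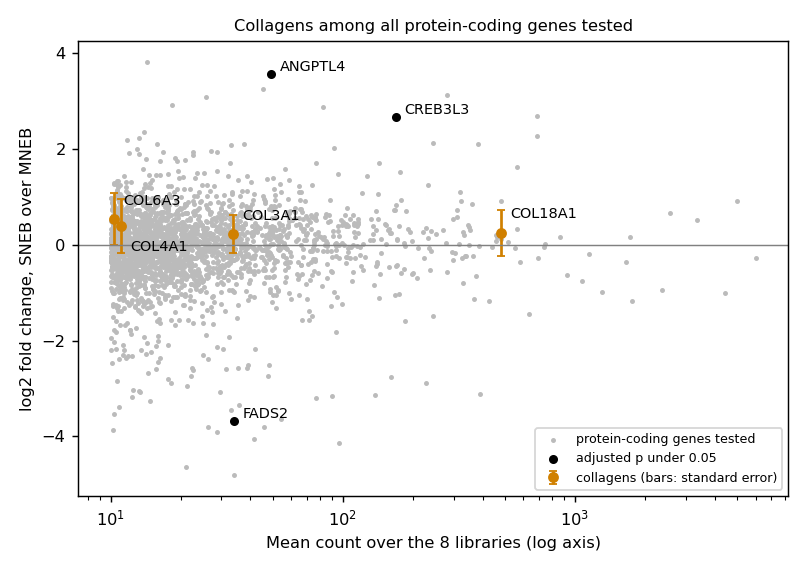
log2 fold change of SNEB over MNEB against mean count (log axis) for the 2415 protein-coding genes tested, with the 4 collagens and their standard errors in orange and the 3 genes with an adjusted p under 0.05 in black. The collagens lie between 0.23 and 0.53, within the body of the other genes.

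With the minimum lowered to a mean count of 5, 12 collagens were tested among 4480 genes and 0 passed, against 0.134% of all genes, and 0 of 12 had an unadjusted p under 0.05, against 11.8%. The log2 fold changes were above 0 for 10 and below 0 for COL14A1 and COL4A5, with a median of 0.45, and the largest was 1.23 for COL6A1 (± 0.61 SE, adjusted p = 0.466 in edgeR's quasi-likelihood test). The groups of CPM values did not overlap for 0 of these 12 genes, against 5.67% of the 4480 genes (3.59% with SNEB higher and 2.08% with SNEB lower). With no minimum, 29 collagens were tested among 13706 genes and 0 passed, against 1.07% of all genes. Among these 29, 1 had an unadjusted p under 0.05, COL15A1, against 7.8% of all genes. The number of genes called moved from 3 to 121 without MNEB replicate 5, to 7 without MNEB replicate 2 and to 8 with 2M placed in SNEB, while the number of collagens called was 0 in all of these.

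The enzymes and chaperones that modify and fold procollagen act in the endoplasmic reticulum. Of the 7 such genes tested 0 passed the test, with a median log2 fold change of -0.01. P4HB, the shared subunit of prolyl 4-hydroxylase that is also protein disulfide isomerase, stood at 2587, 2766, 3077 and 3435 CPM in SNEB and 1825, 866, 1477 and 2183 CPM in MNEB, and PLOD3, a lysyl hydroxylase and glycosyltransferase, at 142, 245, 158 and 231 CPM in SNEB and 69.8, 50.9, 70.1 and 118 CPM in MNEB. In these 2 genes every SNEB library lay above every MNEB library, as in 4.72% of the 2415 genes tested. Their log2 fold changes were 0.85 for P4HB (± 0.38 SE, adjusted p = 0.312) and 1.17 for PLOD3 (± 0.39 SE, adjusted p = 0.184, both from edgeR's quasi-likelihood test). These were the 2 of the 7 with an unadjusted p under 0.05 in that test, against 14.5% of all genes tested. The whole list summed to 4080 to 5072 CPM in SNEB and 2089 to 3654 CPM in MNEB, without overlap. P4HB was the largest part of that sum in every SNEB library, and the sum was not tested. PPIB and MIA3, which fold and export procollagen, had log2 fold changes of -0.01 and 0.11. SERPINH1, the collagen chaperone HSP47, had a mean count under 10, with 20.5 to 85.7 CPM in SNEB and 17.0 to 34.9 CPM in MNEB.

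For cleavage and cross-linking, 1 of 14 genes reached the minimum, the procollagen proteinase BMP1, at 68.7 to 103 CPM in SNEB and 28.0 to 93.0 CPM in MNEB (log2 fold change 0.51, adjusted p = 0.662 in edgeR's quasi-likelihood test). Among collagen-degrading proteases and their inhibitors 2 were tested and 0 passed. MMP19 stood at 46.0 to 71.1 CPM in SNEB and at 93.0, 84.9, 411 and 64.1 CPM in 2M, 3M, 4M and 5M, and MMP15 at 56.9 to 75.6 CPM in SNEB and 49.9 to 136 CPM in MNEB. MMP14, a membrane collagenase, had 5.11 to 28.4 CPM in SNEB and 0, 17.0, 262 and 14.2 CPM in 2M, 3M, 4M and 5M. Both MMP19 and MMP14 were thus highest in 4M, the library rich in Kupffer cell genes. MMP8, MMP9, MMP13, MMP16, FAP and MMP1 were at 0 throughout.

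Of the collagen receptors only the integrin chain ITGB1 was tested, at 210 to 428 CPM in SNEB and 253 to 425 CPM in MNEB (log2 fold change -0.25, adjusted p = 0.797 by the same edgeR quasi-likelihood fit). Of the partners of type IV collagen in basement membranes 6 were tested and 0 passed, 3 above and 3 below 0. LAMB3, a chain of laminin-332, had the largest log2 fold change among them, 0.92 (adjusted p = 0.355 in the same test), with 302 to 771 CPM in SNEB and 117 to 463 CPM in MNEB. The nidogen NID1, which bridges laminin and type IV collagen, had 153 to 317 CPM in SNEB and 178 to 442 CPM in MNEB. Of the interstitial matrix partners 5 were tested and 0 passed. The hepatocyte products fibronectin (FN1) and vitronectin (VTN) had 3063 to 5466 and 3778 to 5588 CPM in SNEB, and 4759 to 9466 and 3282 to 5739.8 CPM in MNEB. THBS1 had 213, 123, 48.1 and 934 CPM in SNEB and 39.2 to 112 CPM in MNEB, its highest value in 10S, where COL4A1 was also highest. Of the genes of the TGF-beta axis, which drives collagen transcription, 2 are reported and 0 passed the test, with log2 fold changes of -0.86 for TGFBR2 and -0.06 for SMAD4.

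**Figure D5:**
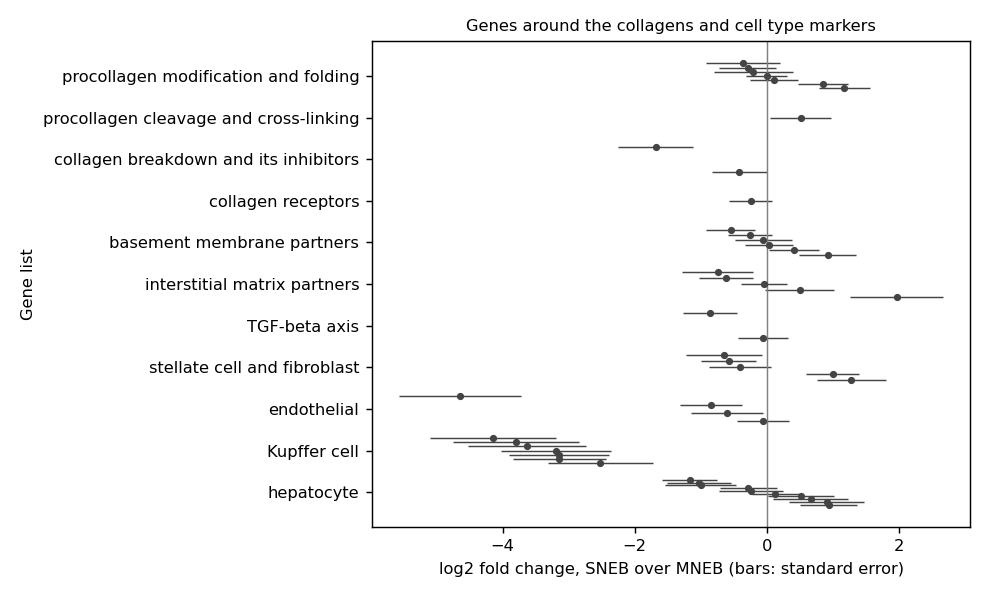
log2 fold changes of SNEB over MNEB, with standard errors, for the tested genes of collagen processing, breakdown, receptors and matrix partners and for cell type markers. All values have an adjusted p above 0.05. The 7 Kupffer cell genes lie between -4.15 and -2.52, and the endothelial gene CDH5 lies at -4.65.

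For the cells that make fibrillar collagen, 16 genes were listed as stellate cell and fibroblast markers, contractile genes among them. Which cells they came from was not tested, and all 16 had at least 1 read. Their sum was 824, 491, 536 and 1045 CPM in SNEB and 837, 917, 678 and 598 CPM in MNEB, and LRAT, the vitamin A enzyme of stellate cells, had 0 to 7.11 CPM in SNEB and 0 to 23.3 CPM in MNEB. Among the 5 tested, the contractile genes ACTA2 and MYH11 had log2 fold changes of 1.28 and 1.00 (adjusted p = 0.270 and 0.258 in edgeR's quasi-likelihood test) and RELN, VIM and NGFR were below 0. ACTA2 was highest in 7S and 10S, at 163 CPM in each, against 32.1 to 61.8 CPM in the other libraries, the same libraries in which COL12A1 was highest. The 13 endothelial markers, all with reads, summed to 307 to 1045 CPM in SNEB and 541 to 1809 CPM in MNEB, the highest in 4M. All 4 endothelial genes tested lay below 0 and 0 passed. CDH5 was furthest from 0, at -4.65 (adjusted p = 0.068 in the same test), and passed under some alternatives, among them upper quartile scaling. It had 0 to 21.3 CPM in SNEB and 57.0 to 626 CPM in MNEB, without overlap. SNEB lay wholly lower in 2.4% of the 2415 genes tested. The 8 Kupffer cell markers, all with reads, summed to 353 to 899.9 CPM in SNEB and 1035 to 16119 CPM in MNEB, and the groups did not overlap. Of the 6 cholangiocyte markers 5 had reads, with sums of 0 to 20.5 CPM in SNEB and 14.0 to 67.9 CPM in MNEB and KRT7 at 0. The globin genes HBA and HBB were at 0 in every library. The part of these cell types in the collagen levels was not tested. Without 4M the log2 ratio was 0.044 for the fibrillar sum, 0.28 for the basement membrane sum and 0.14 for the sum over all collagens, against 0.23, 0.32 and 0.35 with all libraries. Without 5M, whose Kupffer cell sum was 1282 CPM, the same log2 ratios were 0.00040, 0.29 and 0.68.

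miR-29a, whose family represses fibrillar and type IV collagen mRNAs in human and mouse cells, stood at 5685, 5455, 5137 and 6179 RPM of all gene reads in SNEB and at 4849, 5163, 2781 and 1347 RPM in MNEB. It was lowest in 4M and 5M, the libraries with the lowest fibrillar CPM. On the RPM scale used for the miRNAs, the fibrillar sum was lowest in 3M, at 1.14 RPM. On that scale 4M was the highest MNEB library, at 2.08 RPM. miR-143, a miRNA of mesenchymal cells, was highest in 4M and 5M, at 12583 and 7442 RPM. It had 1543 to 2612 RPM in SNEB and 2017 and 2537 RPM in 2M and 3M. miR-29c had 192, 136, 116 and 202 RPM in SNEB and 163, 195, 86.5 and 19.5 RPM in MNEB, and miR-145 had 229, 226, 129 and 518 RPM in SNEB and 242, 72.1, 157 and 42.4 RPM in MNEB. Both were lowest in 5M. All these values share their libraries and totals, and no relation between them was tested.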

How the data were processed

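Small RNA of liver from 8 cows was sequenced as 1 library per cow. The authors deposited whole-number counts, each the reads aligning uniquely to an Ensembl gene, made with FastQC 0.10.0, cutadapt 1.1 (reads under 18 nucleotides were dropped), Novoalign 2.07.11 on UMD3.1 and HTSeq 0.5.3p3. Dropping reads that align to several places lowers genes with near-identical copies, and fragments of mRNA in such libraries depend on RNA breakage as well as on mRNA level. No source used here gives the strand setting. The 3 entries that name no gene (blank or totals) were left out, as were the authors' averages. The 12 pairs of libraries within groups differed by more than the sampling noise (chi-square per degree of freedom at least 2.62 over protein-coding genes), so no library is a copy of another in its group. Pairs across the groups were not compared in this way.

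CPM were computed against protein-coding totals. Genes with a mean count of at least 10 were tested on the counts with edgeR 4.0.16 (quasi-likelihood test, TMM factors of 0.870 to 1.09, Benjamini-Hochberg adjustment over all genes tested) in R 4.3.3. The script was tested on 10 sets of simulated counts for the 2415 genes. At an adjusted p under 0.05 it recovered 8.7% of 2-fold and 67.3% of 4-fold changes. These are averages over genes drawn from all 2415 and were not split by mean count, which was 11.1 for COL4A1 and 10.4 for COL6A3. Collagens under the minimum were not simulated. A collagen that was not called may therefore still differ 2-fold between the groups. Alternatives were RLE, upper quartile and no scaling, other minimum counts, all biotypes in 1 fit, edgeR's exact test, DESeq2 1.42.0, limma 3.58.1 (voom), 2M moved to SNEB, and leaving out libraries one at a time. Sums over collagens and their ratio were given no test. Intervals were computed with scipy 1.17.1. RefSeq names matched 40 of 40 collagens and served for neighbours only. The collagen classes and other lists were chosen with earlier results of these data known. Genes named are the collagens that reach the minimum and the 3 next, some of the most read members of the lists, and any that passed. No Kupffer cell gene is named singly. The other collagens, miR-455, CDH5 and list members named beyond these were chosen after their values were seen. A gene of the listed partners is not reported here.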

Additional observations from a re-analysis of the deposited data

Results flagged for a closer look

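In 64 groups of 4 libraries the highest or lowest library was compared with the other 3, and 4 stood far from the rest of their group. Chance alone gives about 1 such group in 20. COL6A1 was 58.1 CPM in library 2M, from 5 reads (interval 18.9 to 136 CPM), against 10.7 to 17.0 CPM in the other MNEB libraries. Library 2M is the one with conflicting labels. Its COL6A1 level lay within the SNEB range. Its COL14A1 level, 81.4 CPM, and its Kupffer cell sum, 1035 CPM, lay above their SNEB ranges. The group of 2M was not tested from these values. COL4A5 was 102 CPM in 3M, from 6 reads, against 21.4 to 32.7 CPM in the other MNEB libraries. The summed basement membrane partners were lowest in 4M, at 1019 CPM against 1342 to 1395 CPM in the other MNEB libraries. The summed genes of collagen breakdown and its inhibitors were highest in 4M, at 1000.4 CPM against 235 to 357 CPM in the other MNEB libraries.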

How the results depend on the processing

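The number of collagens called was 0 under all 19 alternatives. The number of protein-coding genes called moved from 3 to 6 with upper quartile scaling or a mean count of at least 5, to 40 with at least 1 read in every library, to 147 with no minimum, to 67 with edgeR's exact test, to 73 with DESeq2 and to 8 with 2M in SNEB, and ranged from 2 to 121 when each library was left out, the 121 without MNEB replicate 5. Leaving out each library gave log2 ratios of 0.10 to 0.68 for the sum over all collagens, 0.00040 to 0.54 for the fibrillar sum, -0.0027 to 0.52 for the basement membrane sum and -0.12 to 0.51 for the ratio of fibrillar to basement membrane reads, which was -0.089 with COL15A1 and COL18A1 added to the type IV chains. It gave log2 fold changes of -0.013 to 0.92 for COL18A1, -0.0058 to 0.47 for COL3A1 and -0.34 to 0.62 for COL4A1, which was -0.075 with limma voom. COL6A3 stayed above 0 under all 19 alternatives, from 0.13 to 1.29. The cause of these turns was not tested. No paired analysis was possible because each library came from a different cow and no source used here pairs cows across the groups. Most collagens rest on a few reads per library, so that differences within their counting intervals were not detectable at this depth.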
